A study of Mus musculus with 9 samples.

Results

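The genes described here encode the MHC class I pathway as CD8+ T cells themselves use it. They were chosen by name: the classical heavy chains H2-K1 and H2-D1, the nonclassical heavy chain H2-M3, the light chain B2m, the transporter subunits Tap1 and Tap2, the loading factor Tapbp, the immunoproteasome subunits Psmb8 and Psmb9, and the transactivator Nlrc5. Of these 10 genes, 9 were measured among the 750 genes of the table, and B2m was not analysed here. All values are from mouse OT-1 T cells, whose transgenic T cell receptor recognizes the ovalbumin (OVA) peptide SIINFEKL on H2-Kb, the product of H2-K1 in this strain. In the 3 groups, 3 samples each, primed OT-1 cells were cultured for 24 h with OVA-loaded bone marrow-derived macrophages and CT2A-TRP2-B2mKO glioma cells, with OVA-loaded macrophages, or as OT-1 cells alone, and were then sorted as CD8+ cells. All groups share the preparation of the T cells, which were splenocytes of OT-1 mice given 1 µM peptide and 50 IU of IL-2 per ml for 48 h, purified for CD8 and expanded in IL-2 for 4 days. The macrophages came from Ly6C-high bone marrow monocytes and were loaded with 10 µM peptide for 4 h. The glioma line carries a CRISPR knockout of B2m, holds no OVA, and was added at a T cell to tumor ratio that the labels put at 10, beside a T cell to macrophage ratio of 5, whereas the study's methods state other ratios. Of IL-2 during these 24 h, the methods name it for OT-1 cells alone and leave the co-cultures unclear. A design note calls the reference cells naive, but the growth protocol describes peptide-primed cells, and they are treated as primed here. The labels do not say whether the samples came from separate animals, so p-values measure only the spread between these samples, which may be technical.

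MHC class I molecules display peptides cut from proteins made inside the cell. The immunoproteasome produces many of these peptides, the TAP transporter carries them into the endoplasmic reticulum, and tapasin holds empty class I molecules at the transporter until a peptide is bound. Interferon-γ (IFN-γ) is the textbook inducer of the whole set, acting through IRF1 and through NLRC5, a transactivator that is recruited to class I promoters at a short series of spaced sequence boxes. T cells carry abundant class I themselves, and they also secrete IFN-γ when their receptor is engaged.

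Because NLRC5 acts at class I promoters, the promoter windows of the 3 heavy chain genes are shown. Each holds 250 bases before and 50 bases from the transcription start, from the RefSeq annotation of the mouse build GRCm38.p6. Windows were found for 7 of the 9 measured genes. H2-K1 had 2 windows in this annotation, of which the first listed is shown and used. Capitals mark 3 motifs searched on both strands: TGACG (a shortened cyclic AMP response element), ATTGG or its complement CCAAT, and GGGATTCC (the core of an NF-κB site). H2-K1 lies on the minus strand at chr17:34000298-34000597, H2-D1 on the plus strand at chr17:35262844-35263143 and H2-M3 on the plus strand at chr17:37269984-37270283.
H2-K1: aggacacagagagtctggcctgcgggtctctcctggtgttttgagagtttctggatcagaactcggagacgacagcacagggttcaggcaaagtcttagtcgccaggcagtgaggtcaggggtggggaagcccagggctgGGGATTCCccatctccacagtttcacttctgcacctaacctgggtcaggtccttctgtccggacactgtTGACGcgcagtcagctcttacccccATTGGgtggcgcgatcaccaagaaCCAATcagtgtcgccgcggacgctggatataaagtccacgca
H2-D1: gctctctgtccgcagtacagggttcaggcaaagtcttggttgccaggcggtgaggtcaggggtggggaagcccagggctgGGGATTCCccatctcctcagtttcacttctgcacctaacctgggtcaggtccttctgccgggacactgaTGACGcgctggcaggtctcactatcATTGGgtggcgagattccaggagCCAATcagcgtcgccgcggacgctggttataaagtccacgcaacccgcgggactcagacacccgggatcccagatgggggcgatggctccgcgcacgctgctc
H2-M3: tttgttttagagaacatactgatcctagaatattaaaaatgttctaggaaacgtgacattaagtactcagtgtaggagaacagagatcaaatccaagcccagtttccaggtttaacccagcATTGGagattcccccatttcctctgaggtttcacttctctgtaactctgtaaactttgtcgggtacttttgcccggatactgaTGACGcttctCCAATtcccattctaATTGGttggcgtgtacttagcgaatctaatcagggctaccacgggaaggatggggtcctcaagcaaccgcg

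The H2-K1 and H2-D1 windows were 90.4% identical over 227 aligned bases, with the annotated starts offset from each other. Both hold GGGATTCC, which occurs in 1.06% of the 32851 windows of the reference table. The motif TGACG was found in 5 of the 7 windows, against 20.8% of all windows, and ATTGG in 6 of the 7, against 37.4%. These windows are not independent. Those of Tap1 (chr17:34187306-34187605) and Psmb9 (chr17:34187281-34187580) overlap on opposite strands. The same TGACG site and the same ATTGG site are therefore counted in both, and the H2-K1 and H2-D1 windows are alike. In all 3 heavy chain windows TGACG is followed by 20 bases and then ATTGG, a spacing that was noticed after the motifs had been listed. The B2m window holds it too, and 31 of the 32851 windows (0.0944%) do. The letters GAAANNGAAA, the core of an interferon-stimulated response element, were in 0 of the 7 windows and in 3.44% of all windows, which says only that these letters are not in the stretches searched. Looser forms of this element were not searched for. All 3 heavy chain windows hold TTTCACTTCT, which matches TTTCNNTTTC, the complement of that core, only in part. A GAS element (TTCNNNGAA) was matched in the windows of H2-M3 and Psmb8, against 8.3% of all windows. Of the 9 measured genes, 8 lie on chromosome 17 and Nlrc5 on chromosome 8. Psmb9 and Tap1 are neighbours that are read away from each other, with 225 bases between them.

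RNA was counted on an nCounter, which counts colour-coded probes on each transcript without amplification, and each value below is the log2 of a normalized count. A probe's level depends on the probe, so levels are compared between samples and not between genes. Raw totals recovered from the steps between low values were 697703 to 1186200 counts in 8 samples and 132072 counts in macrophages replicate 2, where each raw count was scaled to 6.38 normalized counts. In that sample the class I genes rested on 89.1 to 2102 raw counts, with counting error of 10.6% (H2-M3) down to 2.18% (Psmb8), whereas they had at least 489 counts in the other 8 samples. The T cell marker Cd3e was at 13.44 to 13.61 with macrophages and tumor cells, 13.27 to 13.55 with macrophages and 12.82 to 12.96 in OT-1 cells alone. The macrophage marker Csf1r was at 4.66 to 4.88 with macrophages and tumor cells, at 3.74, 6.67 and 4.53 with macrophages, and at 3.76 to 4.26 alone. Summed over 37 macrophage markers, the normalized counts were 2839 to 3172 with macrophages and tumor cells, 2209 to 2329 with macrophages (5419 in replicate 2) and 2174 to 2566 alone. Every sum with macrophages and tumor cells was above every sum alone. Of the 37 genes, 1 rose in each comparison with OT-1 alone and 0 passed between the co-cultures, by the adjusted test given below. Of all 750 genes, 18.4% passed in each comparison with OT-1 alone and 3.2% between the co-cultures. Without macrophages replicate 2, 6 of the 37 rose with macrophages and tumor cells and 1 fell with macrophages, beside 29.7% and 22.7% of all genes. Summed over 19 tumor or mesenchymal markers, the normalized counts were 9912 to 10412 with macrophages and tumor cells, 14457 to 16015 with macrophages (16406 in replicate 2) and 3600 to 3930 alone, without overlap. Of these 19 genes, 2 rose and 0 fell in each comparison with OT-1 alone, beside 18.4% of all genes that passed. Between the co-cultures 1 was lower with macrophages and tumor cells, beside 3.2%. Without macrophages replicate 2, 2 of the 19 rose and 2 fell with macrophages and tumor cells, beside 29.7% of all genes. With macrophages 2 then rose and 1 fell, beside 22.7%. Most of the sum was Spp1 (osteopontin, which T cells and macrophages also make), with mean normalized counts of 8622, 13697 and 2443 in the same order of groups. The part of these markers in the differences below was not tested. In sorted bulk cells, fewer cells with a transcript and less of it per cell cannot be told apart.

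Differences of the 9 class I genes between the 3 groups lay between −0.43 and 0.41 on the deposited scale. Exposure to macrophages and tumor cells gave differences from OT-1 alone between −0.13 (H2-K1) and 0.22 (Tap1) on the log2 scale, and 0 of 9 genes passed the test (limma over all 9 samples, two-sided, Benjamini-Yekutieli adjusted over 750 genes, threshold 0.05). Exposure to macrophages gave differences from OT-1 alone between −0.43 (Nlrc5) and 0.16 (Psmb9), and 2 genes, Nlrc5 and H2-D1, were lower. Of all 750 genes, 18.4% passed in the first comparison and 18.4% in the second, where 6.53% passed as lower. Of the 244 genes with a mean level of at least 9, as the class I genes have, 13.1% passed as lower in the second. When the co-cultures were set against each other, all 9 differences were positive, from 0.05 (Psmb9) to 0.41 (Nlrc5), and 0 passed, against 3.2% of all genes. At an unadjusted limma p under 0.05, 1 of 9 genes passed in the first comparison, 5 in the second and 7 in the third, beside 35.9%, 44.8% and 20.9% of all genes. Of the 244 genes with a mean level of at least 9, 148, 140 and 108 passed at this limit.

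**Figure D1:**
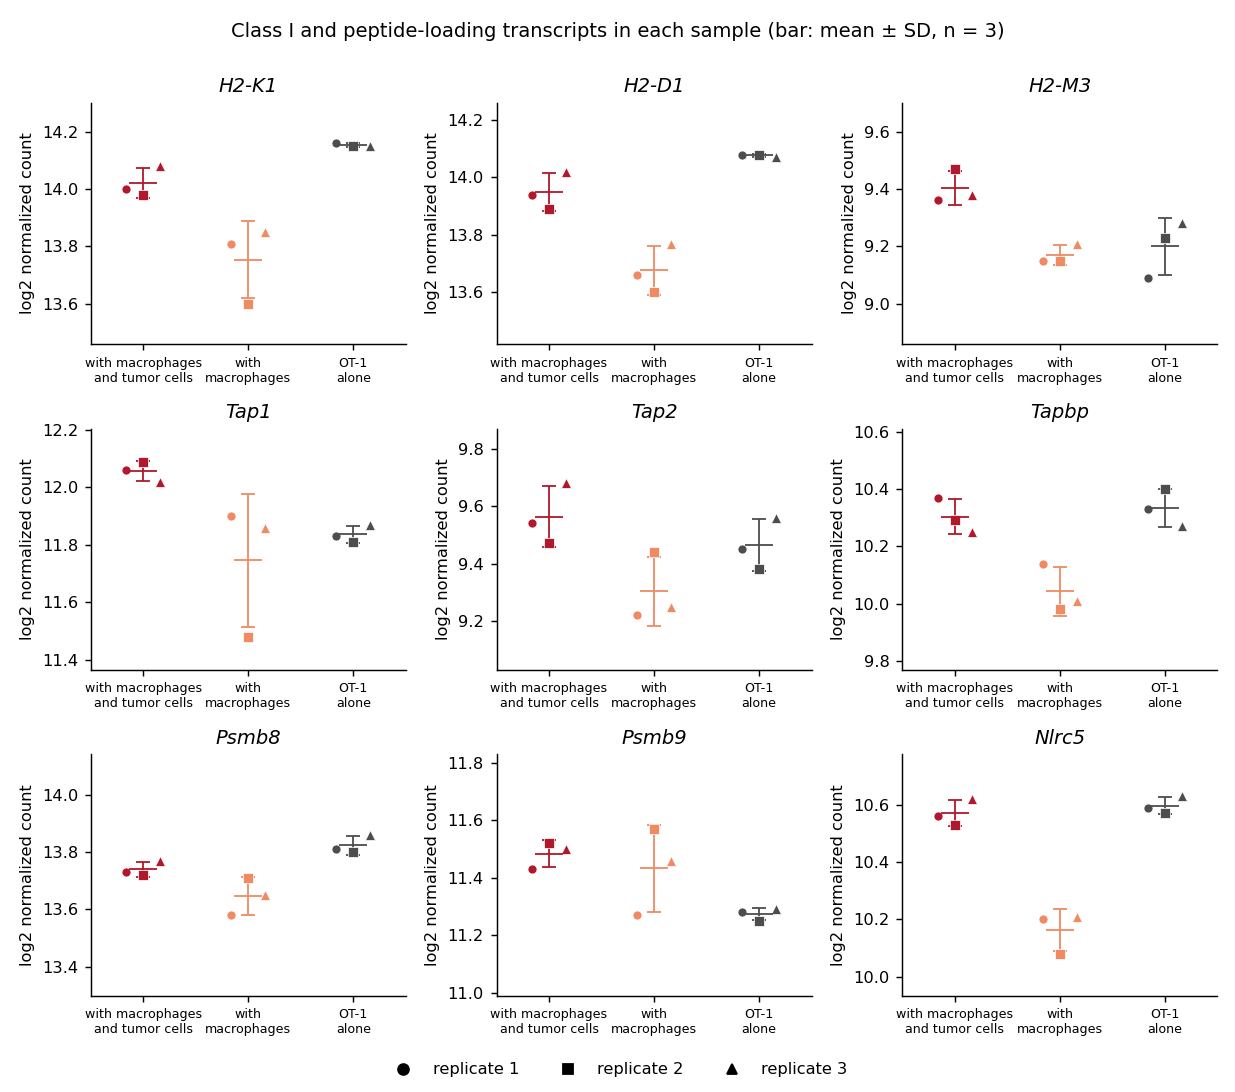
Log2 normalized count (y axis, each panel spanning the same height) of the 9 class I genes in each sample of the 3 groups (x axis), with mean ± SD of 3 samples. The macrophage samples lie lowest for H2-K1, H2-D1, Tapbp, Psmb8 and Nlrc5, without overlap with either other group.

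**Figure D2:**
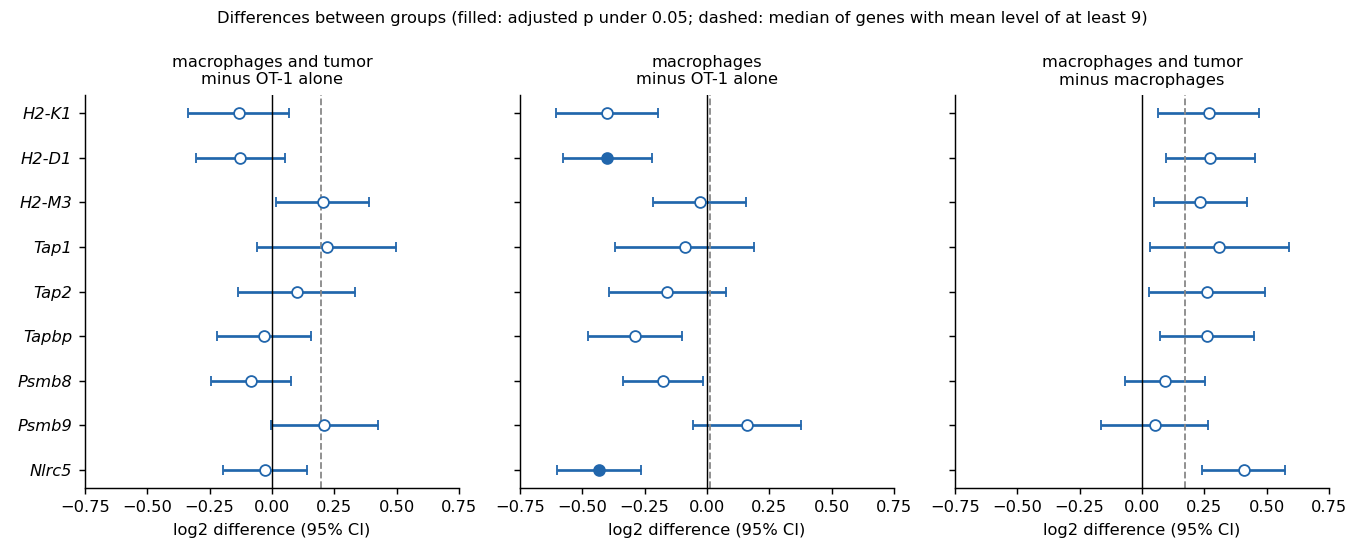
Log2 differences with 95% confidence intervals (x axis) for the 9 genes (y axis) in the 3 comparisons; filled points passed the adjusted test. Nlrc5 and H2-D1 are filled in the comparison of macrophages with OT-1 alone, and the dashed line is the median of 244 genes with a mean level of at least 9 (0.20, 0.01 and 0.17).

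H2-K1 and H2-D1 encode the classical heavy chains, which present peptide to CD8+ T cells. H2-K1 was at 14.00, 13.98 and 14.08 with macrophages and tumor cells, at 13.81, 13.60 and 13.85 with macrophages, and at 14.16, 14.15 and 14.15 in OT-1 cells alone. No group overlapped another, and the samples of OT-1 cells alone were the highest and the least spread. The difference from OT-1 alone was −0.13 ± 0.09 (SE) with macrophages and tumor cells and −0.40 ± 0.09 with macrophages (a ratio of 0.758), which did not pass (limma adjusted p = 0.0799). H2-D1 was at 13.94, 13.89 and 14.02 with macrophages and tumor cells, at 13.66, 13.60 and 13.77 with macrophages, and at 14.08, 14.08 and 14.07 alone. Its groups were ordered like those of H2-K1 and did not overlap. With macrophages H2-D1 fell by 0.40 ± 0.08 (limma adjusted p = 0.0442), and with macrophages and tumor cells it differed from OT-1 alone by −0.13 ± 0.08 (adjusted p = 1). Relative to H2-K1 in the same sample, H2-D1 was at −0.07 ± 0.02 (SD) with macrophages and tumor cells, −0.08 ± 0.08 with macrophages and −0.08 ± 0.01 alone, so the groups overlapped and their mean ratios lay within 0.01 of each other. The probe sequences were not used here, and whether the probe of one gene also counts the other was not tested.

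H2-M3 encodes a heavy chain that presents N-formylated peptides. It was at 9.36, 9.47 and 9.38 with macrophages and tumor cells, at 9.15, 9.15 and 9.21 with macrophages, and at 9.09, 9.23 and 9.28 alone. The samples with macrophages and tumor cells lay above both other groups, which overlapped. The difference from OT-1 alone was 0.20 ± 0.08 with macrophages and tumor cells (limma adjusted p = 0.761) and −0.03 ± 0.08 with macrophages. The first of these turned to −0.05 when samples were centred on the T cell markers Cd3d, Cd3e, Cd3g, Cd247, Cd2 and Lck.

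The transporter genes did not pass in either comparison with OT-1 cells alone. Tap1 was at 12.06, 12.09 and 12.02 with macrophages and tumor cells, at 11.90, 11.48 and 11.86 with macrophages, and at 11.83, 11.81 and 11.87 alone. All 3 samples with macrophages and tumor cells were above the other 6, and the low value with macrophages was that of the sample of low depth. The differences from OT-1 alone were 0.22 ± 0.12 and −0.09 ± 0.12 (limma adjusted p = 1 for both). Without macrophages replicate 2 the second became 0.04, and centring on T cell markers turned the first to −0.03. Tap2, the partner subunit, was at 9.54, 9.47 and 9.68 with macrophages and tumor cells, at 9.22, 9.44 and 9.25 with macrophages, and at 9.45, 9.38 and 9.56 alone. Its differences from OT-1 alone were 0.10 ± 0.10 and −0.16 ± 0.10, and OT-1 alone overlapped with each co-culture. The first of them was −0.15 after centring on T cell markers.

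Tapbp encodes tapasin, which bridges class I molecules to the transporter. It was at 10.37, 10.29 and 10.25 with macrophages and tumor cells, at 10.14, 9.98 and 10.01 with macrophages, and at 10.33, 10.40 and 10.27 alone. The macrophage samples were below the other 6, which overlapped. The difference from OT-1 alone was −0.29 ± 0.08 with macrophages (limma adjusted p = 0.233) and −0.03 ± 0.08 with macrophages and tumor cells.

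Psmb8 and Psmb9 encode catalytic subunits that replace those of the standard proteasome in immune cells. Psmb8 was at 13.73, 13.72 and 13.77 with macrophages and tumor cells, at 13.58, 13.71 and 13.65 with macrophages, and at 13.81, 13.80 and 13.86 alone. Each group was apart from the others by a small margin, with OT-1 alone highest. The differences from OT-1 alone were −0.08 ± 0.07 and −0.18 ± 0.07 (limma adjusted p = 1 and 0.634). Psmb9 was at 11.43, 11.52 and 11.50 with macrophages and tumor cells, at 11.27, 11.57 and 11.46 with macrophages, and at 11.28, 11.25 and 11.29 alone. Samples with macrophages and tumor cells were above those of OT-1 alone, and 1 macrophage sample lay within the range of OT-1 alone. Its differences from OT-1 alone were 0.21 ± 0.09 and 0.16 ± 0.09 (adjusted p = 1 for both), and the first became −0.04 after centring on T cell markers. The log2 ratio of Psmb9 to Psmb8 within a sample was −2.30, −2.20 and −2.27 with macrophages and tumor cells, −2.31, −2.14 and −2.19 with macrophages, and −2.53, −2.55 and −2.57 alone. Both co-cultures were thus above OT-1 alone in all samples, by 0.29 and 0.34 (0.30 for the second without macrophages replicate 2) on the deposited scale. Such separation was common: 82.5% and 76.9% of pairs of genes with a mean level of at least 9 had no overlap in these comparisons. The median absolute shift of those pairs was larger, at 0.56 and 0.55. Centring moves all genes of a sample alike and leaves such a ratio as it is, but quantile normalization does not, and with it the shifts were 0.05 and 0.25. This ratio was looked at after the values had been seen and is given with no test. The third interferon-inducible catalytic subunit, Psmb10, also named after seeing the values, differed from OT-1 alone by −0.17 ± 0.08 and −0.25 ± 0.08 (adjusted p = 1 and 0.384).

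On the deposited scale, Nlrc5 had the largest differences of the 9 genes in both comparisons with the macrophage samples. It was at 10.56, 10.53 and 10.62 with macrophages and tumor cells, at 10.20, 10.08 and 10.21 with macrophages, and at 10.59, 10.57 and 10.63 alone. All 3 macrophage samples were below the other 6, which overlapped. With macrophages Nlrc5 fell by 0.43 ± 0.07 relative to OT-1 alone (a ratio of 0.74, limma adjusted p = 0.0240). With macrophages and tumor cells it differed from OT-1 alone by −0.03, with a 95% confidence interval of −0.19 to 0.14 (adjusted p = 1). The level with macrophages and tumor cells was 0.41 ± 0.07 above that with macrophages, which did not pass (adjusted p = 0.0961).

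Both calls stand near the threshold. When each sample was left out in turn, the Nlrc5 difference between macrophages and OT-1 alone stayed between −0.46 and −0.39, with limma adjusted p from 0.0195 to 0.133, and only without macrophages replicate 2 or macrophages and tumor replicate 3 did it pass. The H2-D1 difference stayed between −0.45 and −0.36, with adjusted p from 0.0487 to 0.212, and it passed only without macrophages replicate 2. H2-D1 also did not pass after centring on T cell markers (adjusted p = 0.0573), with quantile normalization (0.0565), after centring on the median of all genes (0.462) or in a fit of only the 2 groups compared (0.217). Nlrc5 did not pass in the last 2 of these settings (0.40 and 0.163). With a block for the replicate number, neither gene passed. Without that sample of low depth H2-K1 passed as well, at −0.32 (adjusted p = 0.0451). By two-sided exact permutation of 3 samples against 3, each gene whose groups did not overlap had p = 0.1, the smallest value this size allows.

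Groups without overlap were 6 of 9 genes with macrophages and tumor cells against OT-1 alone, 3 higher and 3 lower, beside 57.1% of all genes. They were 5 of 9 with macrophages against OT-1 alone, all lower, beside 53.1%, and 8 of 9 between the co-cultures, all higher with tumor cells, beside 24.9%. Of the 244 genes with a mean level of at least 9, as the class I genes have, 194, 160 and 132 had no overlap in the 3 comparisons. Of these 132 genes, 115 were higher with tumor cells. The median over the 9 genes was −0.03, −0.18 and 0.26 in the 3 comparisons. Over all 750 genes the medians were 0.40, 0.66 and −0.115 (0.40, 0.20 and 0.17 without macrophages replicate 2), and over the 244 genes with a mean level of at least 9 they were 0.20, 0.01 and 0.17. Relative to those 244 genes the class I median stood at −0.23, −0.19 and 0.09.

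The signs of small differences follow the scaling. Summed over 13 T cell markers, normalized counts were 76246 to 81391 with macrophages and tumor cells. They were 69640 to 70265 with macrophages and 53613 to 55645 alone. Against OT-1 alone, 7 of the 13 markers passed as higher and 0 as lower in the co-culture with tumor cells. In the co-culture without them, 5 passed as higher and 3 as lower. The share of all genes that passed was 18.4% in each case. Between the co-cultures 0 markers passed, beside 3.2% of all genes. Centring used the mean of Cd3d, Cd3e, Cd3g, Cd247, Cd2 and Lck. Of these, Cd3e and Cd3g passed as higher in the co-culture with tumor cells than alone. With macrophages, Cd3e and Cd3g rose and Cd247 and Cd2 fell relative to OT-1 alone. This centring moves every difference by −0.25, −0.02 and −0.23 in the 3 comparisons. With macrophages and tumor cells all 9 class I genes were then below OT-1 alone, and between the co-cultures Psmb8, Psmb9 and H2-M3 turned negative. The lower values of H2-K1, H2-D1, Tapbp, Psmb8 and Nlrc5 with macrophages kept their direction under all 23 alternative settings.

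**Figure D3:**
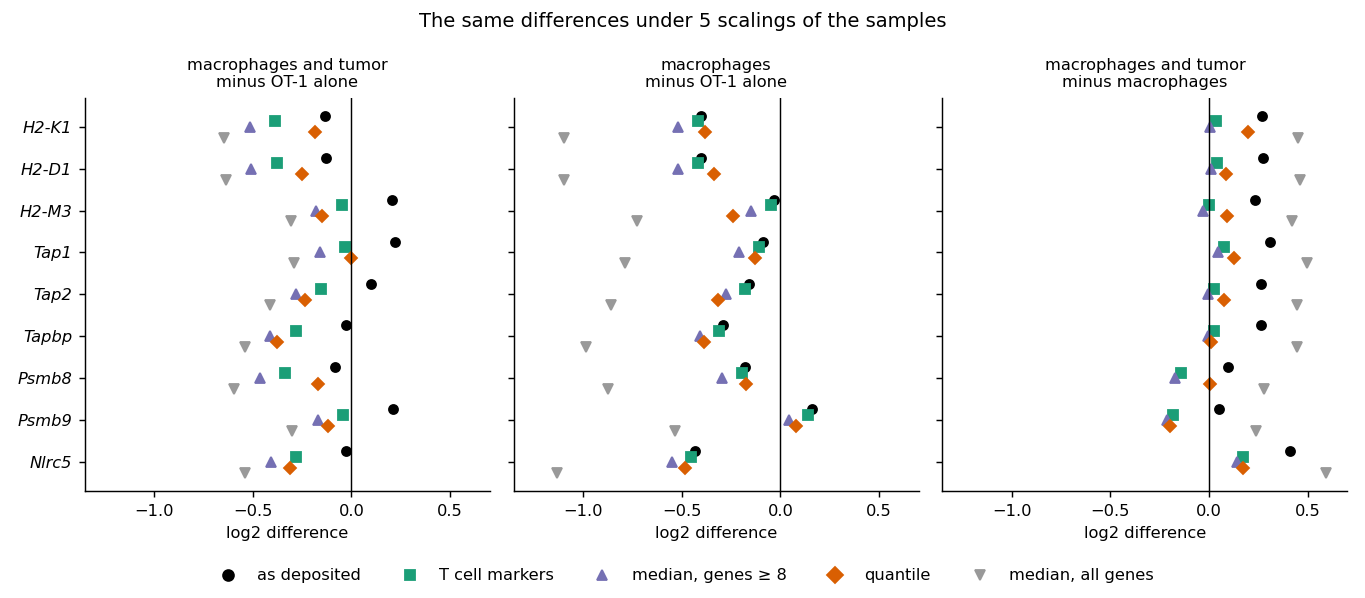
Log2 differences (x axis) of the 9 genes (y axis) in the 3 comparisons, as deposited and under 4 other scalings of the samples. Black points are the deposited scale; H2-M3, Tap1, Tap2 and Psmb9 are positive there with macrophages and tumor cells against OT-1 alone and negative after centring on T cell markers (−0.05, −0.03, −0.15 and −0.04).

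Proportions among the class I genes were compared as log2 ratios within a sample, on the deposited scale. Of 36 pairs of the 9 genes, 21 had no overlap between macrophages and tumor cells and OT-1 alone, beside 82.5% of the 29646 pairs of genes with a mean level of at least 9. For macrophages against OT-1 alone these were 17 of 36 (22 without macrophages replicate 2) beside 76.9%, and between the co-cultures 9 of 36 (12 without it) beside 47.4%. The median absolute shift of a ratio was 0.16, 0.23 and 0.14 for the class I pairs, against 0.56, 0.55 and 0.22 for all those pairs (with quantile normalization, 0.12, 0.17 and 0.09 against 0.54, 0.55 and 0.24). With H2-K1 as the common denominator, a choice made after seeing the values, Psmb9 stood 0.34 above OT-1 alone with macrophages and tumor cells and 0.56 with macrophages (0.42 without replicate 2). Tap1 stood 0.35 and 0.31 above, and H2-M3 0.34 and 0.37, with no overlap in either comparison. Nlrc5 stood 0.11 above with macrophages and tumor cells and −0.03 with macrophages. The denominator H2-K1 itself differed from OT-1 alone by −0.13 and −0.40. Not taken over H2-K1, Psmb9 differed by 0.21 and 0.16, Tap1 by 0.22 and −0.09, and H2-M3 by 0.20 and −0.03. With quantile normalization the shifts over H2-K1 with macrophages and tumor cells were smaller, at 0.06 for Psmb9, 0.18 for Tap1 and 0.03 for H2-M3, and with macrophages they were 0.46, 0.25 and 0.14. The shift of Nlrc5 with macrophages and tumor cells was then −0.13. The neighbours Tap1 and Psmb9 kept their ratio with macrophages and tumor cells, at 0.63, 0.57 and 0.52 against 0.55, 0.56 and 0.58 alone. With macrophages they had 0.63, −0.09 and 0.40. The value −0.09 was that of the sample of low depth, and 0.40, from macrophages replicate 3, also lay below both other groups.

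**Figure D4:**
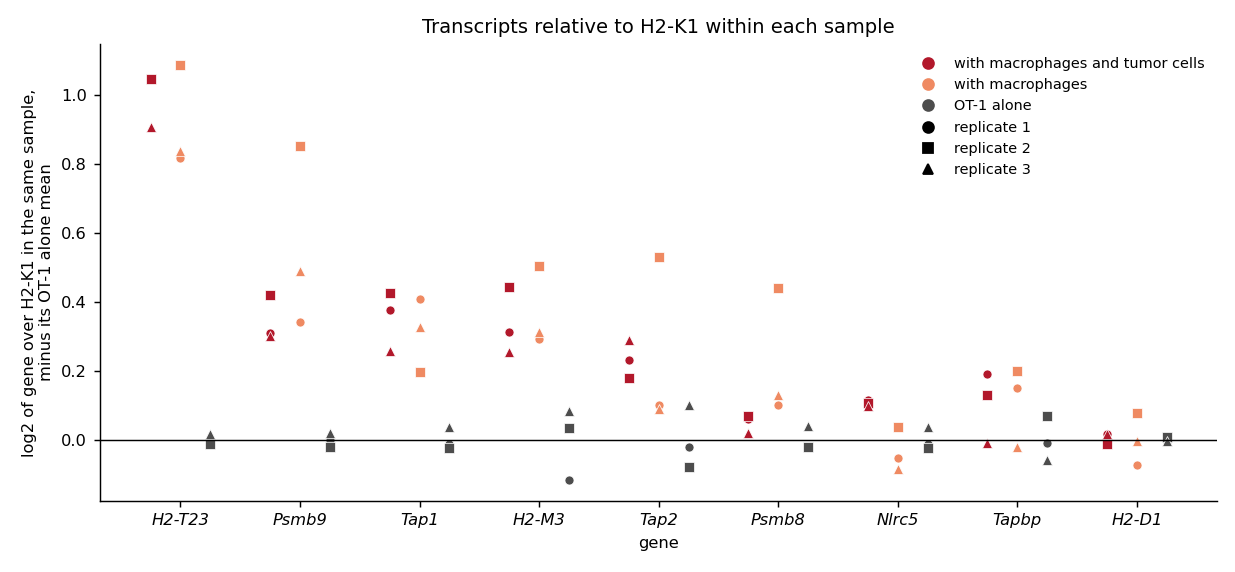
Log2 ratio of each gene (x axis) to H2-K1 in the same sample, minus its mean in OT-1 cells alone (y axis), for each sample of the 3 groups. H2-T23 stands highest, with both co-cultures 1.00 and 0.91 above OT-1 alone, Psmb9, Tap1 and H2-M3 follow, and H2-D1 lies at 0.

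Among 14 other measured genes of class I presentation and recognition, 4 rose and 0 fell with macrophages and tumor cells relative to OT-1 cells alone, 2 rose and 0 fell with macrophages, and 0 passed between the co-cultures. Their medians were 0.44, 0.22 and 0.03. Of all 750 genes, 18.4%, 18.4% and 3.2% passed in the 3 comparisons. Without macrophages replicate 2, 5 rose and 2 fell in the first comparison, 2 rose and 1 fell in the second, and the third median was 0.20, while 29.7% of all genes passed in the first comparison and 22.7% in the second. H2-T23, which encodes the nonclassical heavy chain of Qa-1, was at 13.21, 13.19 and 13.15 with macrophages and tumor cells, at 12.79, 12.85 and 12.85 with macrophages, and at 12.32, 12.30 and 12.33 alone. Its groups were far apart in that order, unlike those of H2-K1 and H2-D1. It rose by 0.87 ± 0.06 with macrophages and tumor cells (limma adjusted p = 3.91e-04) and by 0.51 ± 0.06 with macrophages (adjusted p = 0.00546). Cd8a, the CD8 α chain that binds class I, rose by 0.90 ± 0.11 and 0.72 ± 0.11 (adjusted p = 0.00451 and 0.0137), and the cells had been sorted on CD8. Ctss, a lysosomal protease, rose by 0.54 ± 0.09 with macrophages and tumor cells (adjusted p = 0.0243). The last of the 4, named after its value was seen, was Cd8b1, the CD8 β chain, at 0.41 ± 0.07 (adjusted p = 0.0375).

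Ifng, which encodes the textbook inducer of the pathway, rose in both co-cultures. Ifng was at 10.30, 10.24 and 9.71 with macrophages and tumor cells, at 9.65, 9.91 and 9.55 with macrophages, and at 7.62, 7.75 and 8.07 in OT-1 cells alone. Every co-culture sample was above every sample of OT-1 cells alone. Ifng rose 4.82-fold with macrophages and tumor cells and 3.71-fold with macrophages (limma adjusted p = 9.68e-04 and 0.00275). Irf1, an interferon-induced transcription factor that acts on class I promoters, was at 10.67, 10.77 and 10.85 with macrophages and tumor cells, at 10.45, 10.38 and 10.49 with macrophages, and at 10.97, 10.97 and 11.01 alone. Its groups did not overlap and stood in the same order as those of H2-K1. It fell by 0.54 ± 0.08 with macrophages (adjusted p = 0.0105) and differed by −0.22 ± 0.08 with macrophages and tumor cells (adjusted p = 0.525). Ciita, the class II counterpart of Nlrc5, was at 2.45 to 4.28 with macrophages and tumor cells, 3.24 to 6.0 with macrophages and 2.68 to 3.03 alone, and did not pass in any comparison.

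Of 20 measured genes between interferon and class I, 5 rose and 1 fell with macrophages and tumor cells relative to OT-1 alone, 2 rose and 2 fell with macrophages, and 2 were higher and 0 lower between the co-cultures (medians 0.18, −0.09 and 0.22). Without macrophages replicate 2 these were 6 higher and 1 lower in the first comparison, 2 higher and 3 lower in the second and 2 higher in the third, with medians of 0.18, −0.03 and 0.17. Of all 750 genes, 18.4%, 18.4% and 3.2% passed in the 3 comparisons with all samples. Without that sample, 29.7% passed in the first comparison and 22.7% in the second. Irf8, a factor of the same family as Irf1, rose by 1.59 ± 0.12 with macrophages and tumor cells and by 1.15 ± 0.12 with macrophages (limma adjusted p = 3.91e-04 and 0.00225). Socs1, a brake on cytokine receptor signalling, fell by 1.49 ± 0.13 and fell by 1.48 ± 0.13 (adjusted p = 9.77e-04 and 0.00128). Ifngr1, the ligand-binding chain of the IFN-γ receptor, was 1.26 ± 0.08 higher with macrophages and tumor cells than with macrophages (adjusted p = 0.00154), and Ifnar1, a chain of the type I interferon receptor, 0.67 ± 0.09 higher (adjusted p = 0.0355).

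**Figure D5:**
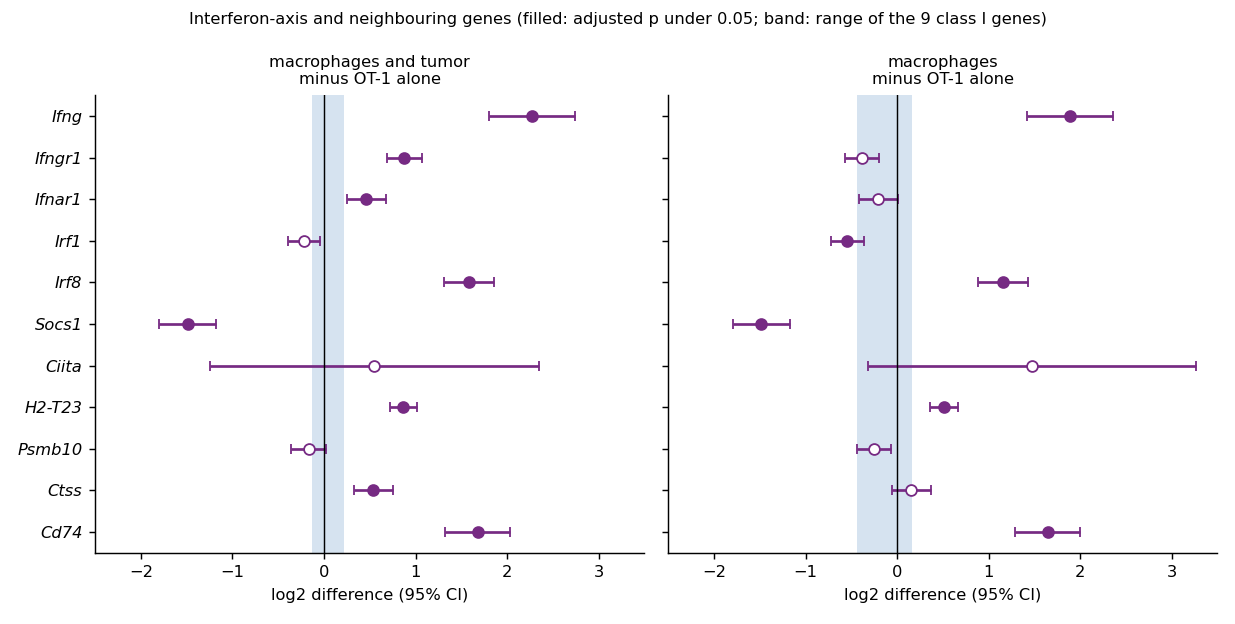
Log2 differences from OT-1 alone with 95% confidence intervals (x axis) of interferon-axis and presentation genes (y axis), with macrophages and tumor cells (left) and with macrophages (right); filled points passed the adjusted test, and the band is the range of the 9 class I genes. Ifng, Irf8, H2-T23 and Cd74 lie to the right of the band and Socs1 to its left in both panels.

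Other interferon-stimulated genes moved in both directions, beside 18.4%, 18.4% and 3.2% of all genes that passed in the 3 comparisons. Of 26 measured, 3 rose and 3 fell with macrophages and tumor cells relative to OT-1 alone, 3 rose and 4 fell with macrophages, and 2 were higher between the co-cultures (medians 0.42, 0.48 and 0.01, the second 0.04 without macrophages replicate 2, which also gave 5 higher and 4 lower in the first and a median of 0.31 between the co-cultures, with 29.7% of all genes then passing in the first). Ifitm1, a membrane protein that restricts viral entry, fell by 1.63 ± 0.08 with macrophages and tumor cells and fell by 2.89 ± 0.08 with macrophages (limma adjusted p = 7.93e-05 and 1.51e-05). Ifitm2, of the same family, fell by 0.89 ± 0.07 and fell by 1.93 ± 0.07 (adjusted p = 4.45e-04 and 1.51e-05). These were the 2 genes higher between the co-cultures, by 1.26 ± 0.08 for Ifitm1 and 1.04 ± 0.07 for Ifitm2 (adjusted p = 0.00154 for both). Isg20, an exonuclease that degrades RNA, fell by 0.80 ± 0.08 and fell by 1.10 ± 0.08 (adjusted p = 0.00147 and 3.74e-04), and Xaf1, linked to apoptosis, rose by 1.12 ± 0.13 and 0.88 ± 0.13 (adjusted p = 0.00470 and 0.0162). Of 9 class II genes, 1 was higher in each co-culture than in OT-1 alone: Cd74, the invariant chain, rose by 1.68 ± 0.15 with macrophages and tumor cells and by 1.65 ± 0.15 with macrophages (adjusted p = 0.00103 and 0.00144). The class II chain H2-Ab1 was at 6.75 to 6.90 with macrophages and tumor cells, 6.40 to 7.07 with macrophages and 6.93 to 7.16 alone.

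The genes outside the class I set whose pair of differences from OT-1 alone lay nearest to the class I medians, among 347 genes with a mean level of at least 7, were Tab1, Yy1, Cd164, Traf6 and Irak4. Likeness was the larger of the gaps in the 2 comparisons, which share the samples of OT-1 cells alone. Tab1 lay closest, at −0.02 with macrophages and tumor cells and −0.17 with macrophages, a gap of 0.01, and Irak4, the fifth, had a gap of 0.05.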

How the data were processed

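The authors isolated RNA from sorted CD8+ T cells, ran it on the PanCancer Immune Profiling Panel of an nCounter MAX system, normalized the counts in nSolver, and deposited log2 normalized values with 2 decimals for 750 genes in 9 samples. Raw counts and normalization factors were not used here. Depth was recovered from the steps between values under 30 normalized counts, which were whole multiples of 1 step in every sample within the rounding of 0.005. The 3 groups of 3 samples were compared by limma 3.58.1 under R 4.3.3, in 1 linear model of all 9 samples with a mean for each group and moderated variances. No gene was filtered out, and p-values were adjusted by Benjamini-Yekutieli over 750 genes at a threshold of 0.05. The comparisons share samples. Single genes were also compared by a two-sided exact permutation test, and the fit was tested on simulated data. Chi-square over degrees of freedom was 1.94 to 25.6 between replicates, above counting noise, and no sample was merged with another. The genes and lists were chosen with earlier results of these data known. Outside the class I set, up to 3 genes per list and comparison with the largest difference past the threshold were named, with Ifng, Irf1 and Ciita always, and Psmb10, Cd8b1, H2-Ab1 and Spp1 were named outside this rule after their values were seen; 1 further gene of this rule is not reported here. Symbols and promoter windows came from RefSeq (GRCm38.p6), and 734 of 750 symbols were current there. Motifs were searched as exact letters on both strands, and windows were compared by local alignment with Biopython 1.88. Alternatives were scaling (centring on T cell markers, on the median of all genes or of 310 genes with a mean level of at least 8, or quantile normalization), a filter at a mean level of 6, a floor of 100 or a pseudocount of 20 normalized counts, other adjustment and fit options, and leaving out each sample. Ratios within a sample, their values with quantile normalization, and values of lists without macrophages replicate 2, were added after seeing the data.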

Additional observations from a re-analysis of the deposited data

How the results depend on the processing

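Counts of class I genes past the threshold were recomputed under 23 settings. With macrophages and tumor cells against OT-1 alone, the count of 0 became 5 lower after centring on the median of genes with a mean level of at least 8 (H2-K1, H2-D1, Tapbp, Psmb8 and Nlrc5), 1 with quantile normalization (Tapbp, lower), 1 with sample weights (Tap1, higher), 6 by the methods' t-test unadjusted and 3 after Benjamini-Hochberg. With macrophages against OT-1 alone, the count of 2 became 0 after centring on the median of all genes, 0 with only the groups compared and 0 with a replicate block. With quantile normalization it was still 2, but with Tapbp in place of H2-D1. It became 1 after centring on T cell markers (Nlrc5) and 4 after centring on the median of genes with a mean level of at least 8, with a filter at a mean level of 6, with Benjamini-Hochberg adjustment, with trend and robust options and by the methods' t-test after Benjamini-Hochberg (H2-K1, H2-D1, Tapbp and Nlrc5 each time). Sample weights and the unadjusted t-test gave 5, adding Psmb8. Leaving out 1 sample gave 0 to 3. Between the co-cultures, the count of 0 became 1 (Nlrc5, higher) with the filter at 6, a floor of 100 counts, Benjamini-Hochberg adjustment, trend and robust options and the t-test after Benjamini-Hochberg, 2 with sample weights (Tapbp and Nlrc5) and 6 by the unadjusted t-test. The replicate block ended the calls of H2-D1 and Nlrc5 (limma adjusted p = 0.113 and 0.0741) and added 0. Same-numbered samples gave correlations from −0.37 to 0.46 (5 of 9 over 0.1). With 3 samples a group these cannot show whether the numbers pair the samples, which is not known. The main fit holds no such block, and both calls rest on taking the samples as unpaired.

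Of 621 single-gene values, 519 kept direction and side of the threshold, 23 lost the threshold, 48 gained it and 31 changed sign. With macrophages and tumor cells against OT-1 alone, H2-M3, Tap1, Tap2 and Psmb9 became −0.31, −0.29, −0.41 and −0.30 after centring on all genes, −0.18, −0.16, −0.28 and −0.17 on genes with a mean level of at least 8, and −0.0494, −0.0328, −0.15 and −0.0428 on T cell markers. Quantile normalization gave −0.15 for H2-M3, −0.24 for Tap2 and −0.12 for Psmb9, and Tapbp ran from −0.0633 to 0.0033 with 1 sample left out (positive without OT-1 alone replicate 2). With macrophages against OT-1 alone, sample weights gave 0.0057 for H2-M3 and 0.0338 for Tap1, H2-M3 ran from −0.085 to 0.01 with 1 sample left out (positive without OT-1 alone replicate 3), Tap1 was 0.0433 without macrophages replicate 2, and Psmb9 was −0.54 after centring on all genes. Between the co-cultures, centring on genes with a mean level of at least 8 gave −0.0317 for H2-M3, −0.005 for Tap2, −0.005 for Tapbp, −0.1717 for Psmb8 and −0.215 for Psmb9, and centring on T cell markers gave −0.0006, −0.1406 and −0.1839 for H2-M3, Psmb8 and Psmb9. Psmb9 was −0.1983 with quantile normalization and ran from −0.0317 (without macrophages replicate 1) to 0.1183 with 1 sample left out. Apart from fewer samples or genes in the settings that leave some out, the cause was not tested.

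Of the 27 differences of the 9 genes in the 3 comparisons, 10 changed sign under at least 1 of the 4 other scalings (4, 1 and 5 by comparison), so their direction is known only relative to a chosen scale. With 3 samples a group, a difference that missed the threshold is not shown to be absent. Macrophages replicate 2 had 132072 raw counts, against at least 697703 in the others, and its weight in the fit with sample weights was 0.0516. The panel has 1 value per gene, levels of RNA and not of surface protein were measured, and B2m was not analysed here.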
